A study of Mus musculus with 3 samples.

Results

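Ribosomal protein genes encode the proteins of the cytosolic ribosome. They were taken as every gene row whose name starts with Rpl, Rps or Rplp followed by a digit, or is Rpsa, without pseudogene names that carry -ps and without the Rps6k kinases. The rule found 85 genes among 17126 gene rows, 34 with an Rps name or Rpsa and 51 with an Rpl or Rplp name. All 85 were listed in each of the 3 libraries. Of these, 77 are typical ribosomal protein genes and 8 are paralogs or like-named genes: Rpl3l, Rpl7l1, Rpl22l1, Rpl36al, Rpl39l, Rps27l, Rps27rt and Rps19bp1. The last of these encodes a protein that binds ribosomal protein S19 and is not itself a ribosomal protein.

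The data are 10x Chromium 3′ single-cell RNA profiles of interstitial cells from adult mouse hearts. Hearts were digested with collagenase II, most cardiomyocytes were spun out at low speed, and the remaining cells were sorted by flow cytometry on Lin28, an RNA-binding protein normally inside the cell, and on the receptor kinase cKit, each at the cell surface. The 3 groups were cells with neither protein at the surface (Lin28-/cKit-, 3976 cells), with surface Lin28 alone (Lin28+/cKit-, 681 cells) and with both (Lin28+/cKit+, 1176 cells). Each group is 1 library, all 3 share the tissue, digestion and sort, and the number, age, sex and strain of the animals were not stated in the labels. With 1 library per group there is no spread over samples and no test was made. Intervals are 95% and cover counting error only, and a difference between groups cannot be told apart from one between libraries.

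Ribosomes are built from a small (40S) and a large (60S) subunit, whose proteins are needed in equal amounts from separate genes spread over the genome. Most of these messenger RNAs open with a run of C and T (C and U in the RNA) at the very 5′ end, the terminal oligopyrimidine or TOP motif, through which mTORC1 and the RNA-binding protein LARP1 control their translation and stability. Their proteins enter the nucleus, are assembled with ribosomal RNA in the nucleolus, and unassembled RPL5 and RPL11 bind MDM2 and so stabilise p53 when assembly fails.

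The start regions of a few members are shown since the results below turn on these genes. Each is 30 bases of GRCm38.p6 from the RefSeq promoter table, 15 bases before the annotated start and 15 from it on, written 5′ to 3′ on the strand of the gene. Capitals mark a run of at least 6 C or T that opens with C within 10 bases of the start. Rps27 lies on the minus strand at chr3:90213634-90213663 and Rps27rt, a copy of Rps27, on the minus strand at chr9:114982725-114982754. Rps6 is at chr4:86857353-86857382 (minus), Rpl38 at chr11:114668565-114668594 (plus), Rps26 at chr10:128626492-128626521 (minus), Rpl22l1 at chr3:28805493-28805522 (plus), Rpl10 at chrX:74270801-74270830 (plus) and Rps28 at chr17:33824548-33824577 (minus).
Rps27: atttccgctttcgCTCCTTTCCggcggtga
Rps27rt: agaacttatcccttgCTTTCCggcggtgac
Rps6: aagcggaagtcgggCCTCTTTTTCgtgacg
Rpl38: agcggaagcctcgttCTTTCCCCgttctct
Rps26: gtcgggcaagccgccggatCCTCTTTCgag
Rpl22l1: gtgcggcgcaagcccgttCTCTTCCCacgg
Rpl10: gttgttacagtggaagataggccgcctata
Rps28: ggtaccgcgtgcggtctcgcgagagcgaaa

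Rps27 and Rps27rt share 39 of 48 bases after the start with an offset of 1 base, and 8 of 50 bases before it. The promoter table held 65 of the 85 members with 77 start windows. The pyrimidine run stood on the transcribed strand in 46.8% of those windows and in 19.2% of the 32851 windows of all genes. On the opposite strand the shares were 7.79% and 22.2%. CGGAAG on either strand, a motif that ETS family factors bind, was found in 61.0% of the members' 300-base windows against 16.9% of all windows, and TATAAA on either strand in 9.09% against 13.6%. In Rpl10 and Rps28 no such run was found around the listed start.

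The libraries held 34031955 UMIs (Lin28-/cKit-), 7401174 (Lin28+/cKit-) and 10400648 (Lin28+/cKit+), with median UMIs per cell of 8630, 9628 and 8068.5. A UMI is a molecular tag counted as 1 captured RNA molecule, and levels are given as UMIs of a gene per 1000000 UMIs of the same cells (CPM). Reads come from 3′ ends, so CPM was not divided by gene length. The Lin28-/cKit- and Lin28+/cKit+ libraries share 8 cell barcodes, the 2 Lin28+ libraries share 1, and the other pair shares none. Cells were clustered without the members, so the members did not define the clusters. Cell classes were named only from marker lists, while most single clusters are called here by a leading gene. The naming rule was adjusted after the clusters were seen, and 273 cells (6.87%) of the Lin28-/cKit- library, 94 (13.8%) of Lin28+/cKit- and 79 (6.72%) of Lin28+/cKit+ remained unnamed.

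Ribosomal protein messengers were among the most abundant RNAs captured. Their share of all UMIs was 16.01% in the Lin28-/cKit- library, 13.9% in Lin28+/cKit- and 15.2% in Lin28+/cKit+. The median cell had 15.4%, 13.8% and 14.9%, and single cells of the Lin28-/cKit- library ranged from 2.74% to 43.0%. The 40S genes gave 44.7%, 46.2% and 45.8% of the members' UMIs. The median member stood at 1956, 1660 and 1851 CPM, and 72, 66 and 69 of the 85 reached 1000 CPM. In the same library order, 74, 70 and 74 members had a UMI in at least 90% of the cells.

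The most abundant members differed between libraries. In Lin28-/cKit- cells the highest included Rpl13 at 4640 CPM, the stalk gene Rplp1 at 4276, Rps24 at 3693 and Rps12 at 3386. In the Lin28+ libraries Rps29, which encodes a small zinc-binding protein of the 40S head, led with 6324 CPM in Lin28+/cKit- and 5898 in Lin28+/cKit+ cells, against 3171 in Lin28-/cKit- cells. Most cells of the Lin28-/cKit- library were fibroblast-like, and Rps29 was at 2973 CPM in them against 4089 in the endothelial-like cells beside them. At the low end Rpl3l, the muscle paralog of Rpl3, had 14, 12 and 13 UMIs in the whole libraries, and Rpl39l, a paralog of Rpl39 known from testis, had 35, 3 and 19. Of the genes that the naming rule leaves out, Fau, which encodes eS30 fused to a ubiquitin-like protein, was at 2352, 3088 and 3492 CPM. Rack1, a scaffold protein of the 40S head, was at 1488, 1178 and 1445 CPM.

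The share differed between cell classes as well as between libraries. In endothelial-like cells, which were found in each library, it was 14.9% in Lin28-/cKit- (975 cells), 15.1% in Lin28+/cKit- (262 cells) and 15.8% in Lin28+/cKit+ (468 cells), with cell medians of 13.8%, 14.7% and 15.3%. In macrophage-like cells it was 13.1% in Lin28+/cKit- (265 cells) and 14.6% in Lin28+/cKit+ (595 cells). In the 2647 fibroblast-like cells of the Lin28-/cKit- library it was 16.1%. Thus in each Lin28+ library the macrophage-like cells had the lower share of the 2 large classes. Classes with few cells lay farther out: 26.8% in 20 B cell-like cells of Lin28-/cKit- and 30.9% in 10 of Lin28+/cKit-, but 8.19% in 11 Schwann cell-like cells. The 14 macrophage-like cells of the Lin28-/cKit- library had 19.1%.

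**Figure D1:**
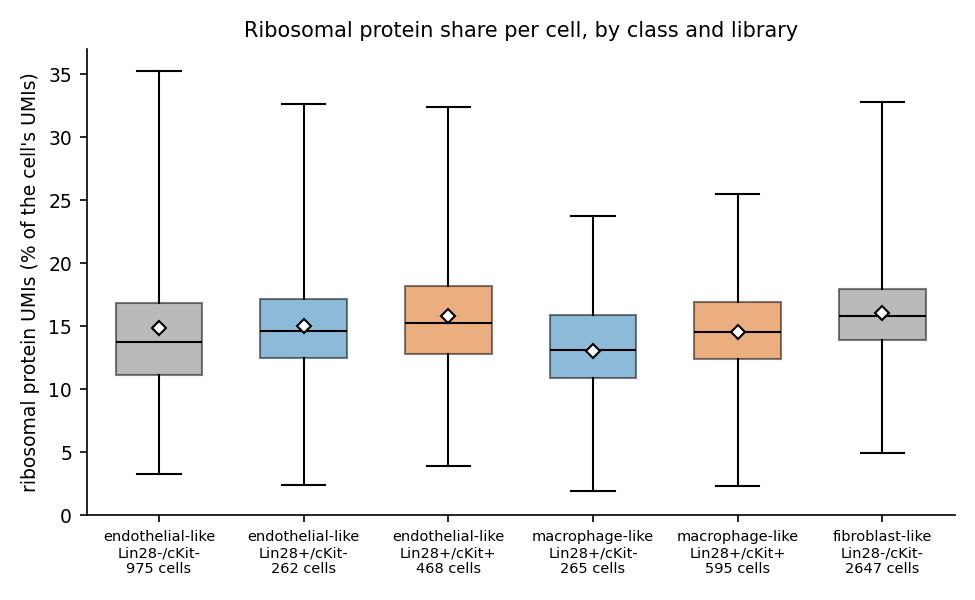
Percent of each cell's UMIs in the 85 ribosomal protein genes (vertical axis) by cell class and library (horizontal axis); boxes run from the lower to the upper quartile over cells with the median as a line, whiskers reach the lowest and highest cell, and diamonds are the share of summed UMIs. The boxes overlap, with diamonds from 13.1% (macrophage-like, Lin28+/cKit-) to 16.1% (fibroblast-like, Lin28-/cKit-).

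Depth per cell was related to the share unevenly, most in the endothelial-like cells of Lin28-/cKit-. In the fibroblast-like cells of that library the rank correlation between a cell's share and its total UMIs was 0.14. Among endothelial-like cells the rank correlation between a cell's share and its total UMIs was 0.37, 0.13 and 0.10 in the 3 libraries, over 975, 262 and 468 cells that share library and background RNA. Their median depth was 3957, 7433 and 5247 UMIs. In the Car4 endothelial cluster of the Lin28-/cKit- library the share was 11.7% in cells of 500 to 2000 UMIs, 13.4% at 2000 to 5000 and 15.6% at 5000 to 10000. At 5000 to 10000 UMIs that cluster had 15.4% in Lin28+/cKit- and 16.1% in Lin28+/cKit+ cells. Over all macrophage-like cells the rank correlations were -0.07 and -0.02, over 2 clusters of unequal depth and share. In the Il1b cluster of Lin28+/cKit+ the share was 13.3% in 20 cells of 2000 to 5000 UMIs, 15.7% at 5000 to 10000 and 16.3% at 10000 to 20000, and in the Folr2 cluster of that library it was 13.5%, 13.9% and 13.8% at 5000 to 10000, 10000 to 20000 and above 20000. The same bins of the Folr2 cluster in Lin28+/cKit- gave 12.2%, 13.3% and 11.97%. Cells with more Malat1, a nuclear RNA, had a lower share in each class and library examined, with rank correlations between -0.27 and -0.45. The part of depth and of nuclear RNA in the differences between libraries was not tested.

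Within classes the share differed between clusters. Among endothelial-like clusters the one led by Npr3, a gene of the endocardium, had the highest share, 18.03% (105 cells), 17.7% (8 cells) and 20.2% (30 cells). The Car4 cluster, whose leading genes mark capillaries, had 14.2%, 15.2% and 15.7%. The Hey1 cluster, led by arterial genes, was lowest at 13.4%, 13.2% and 13.95%, and the Col13a1 cluster had 15.1%, 14.8% and 15.4%. The subtype marker lists gave the Car4 and Col13a1 clusters no subtype. A cluster of shallow endothelial-like cells, left out of the order below, had 14.8%, 16.4% and 19.7% in 65, 23 and 38 cells. In order of share among these 4 clusters, Npr3 was first and Hey1 last in each library. Col13a1 was above Car4 in Lin28-/cKit- and below it in both Lin28+ libraries. Among macrophage-like clusters the Folr2 cluster, led by resident macrophage genes, had 12.5% in Lin28+/cKit- and 13.8% in Lin28+/cKit+ cells. The cluster led by Il1b, an inflammatory cytokine gene, had 15.8% and 15.9%. The subtype marker lists named this cluster an MHC class II type (H2-Aa, Cd74), not an inflammatory type. The 5 fibroblast-like clusters of the Lin28-/cKit- library lay between 14.9% (Postn) and 16.5% (Inmt and Cd248).

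Clusters that met no naming rule ranged widely. A small cluster of the Lin28-/cKit- library with the T cell gene Cd3g and the NK cell gene Ncr1 among its leading genes had 29.3% in 27 cells and is called the T and NK marker cluster below. The cycling cluster, led by Top2a and Mki67, had 21.1% in 34 Lin28-/cKit- cells, 12.1% in 9 Lin28+/cKit- cells and 19.5% in 23 Lin28+/cKit+ cells. The cluster with the mural genes Rgs5 and Acta2 had 11.4%, 12.3% and 13.3% in 46, 11 and 8 cells. The 9 cycling cells that stand apart are too few to set against the other libraries.

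**Figure D2:**
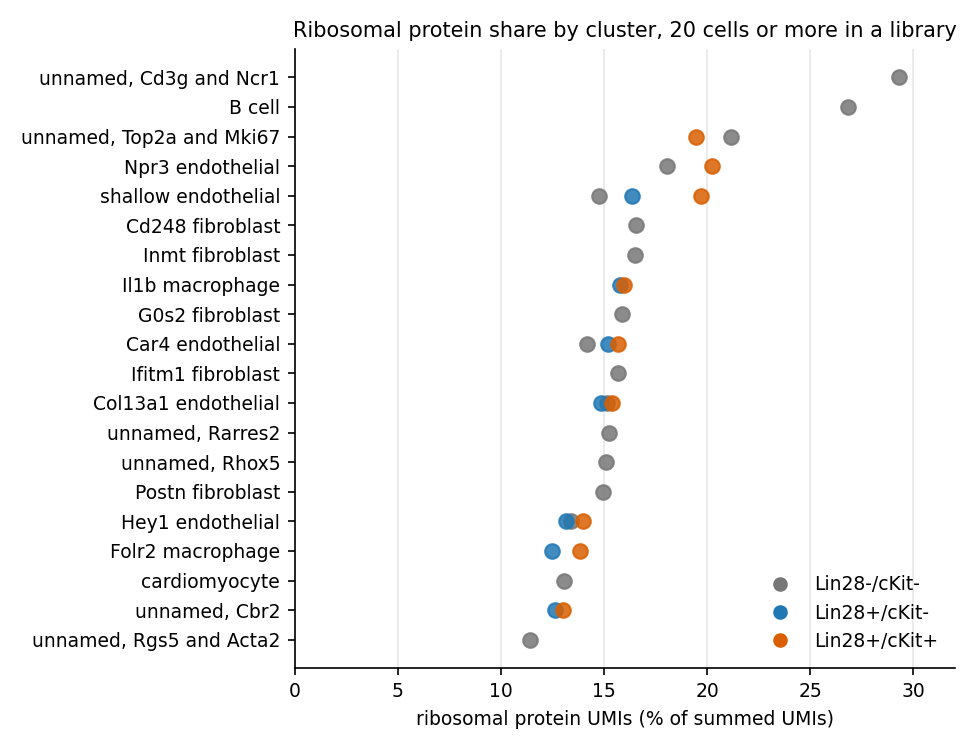
Percent of UMIs in ribosomal protein genes (horizontal axis) for each cluster (vertical axis, named by leading genes), with 1 point per library that holds at least 20 of its cells. The T and NK marker cluster at 29.3%, the B cell-like cells at 26.8%, the cycling cluster at 21.1% and 19.5% and the Npr3 endothelial cluster at 18.03% and 20.2% lie to the right, the last beside a shallow endothelial cluster at 19.7% in Lin28+/cKit+ cells, and the Rgs5 and Acta2 cluster lies lowest at 11.4%.

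Surface Lin28 was first examined among endothelial-like cells without surface cKit. A gene was called higher or lower where its CPM was at least 25% higher or at least 20% lower with an interval of the ratio that excluded 1, among genes that reached 100 UMIs over the pair of groups. Of 83 members measured, 13 were higher in Lin28+/cKit- than in Lin28-/cKit- cells and 0 were lower. Over all 6637 genes measured, 8.81% were called higher and 11.1% lower. The members' median log2 ratio was -0.06 against -0.02 over all genes, and their summed share had a ratio of 1.01.

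The 13 were Rpl13a, Rpl27, Rpl29, Rpl36al, Rpl38, Rpl39, Rpl41, Rps2, Rps18, Rps27, Rps27rt, Rps28 and Rps29. Rps27rt was at 182 CPM in Lin28+/cKit- and 66.5 CPM in Lin28-/cKit- endothelial-like cells, a ratio of 2.73 (2.33 to 3.20). Rpl27, a large-subunit protein gene, was at 736 and 353 CPM, a ratio of 2.08 (1.94 to 2.24). Rps28, which encodes a small protein near the messenger exit of the 40S head, was at 2110 and 1204 CPM, a ratio of 1.75 (1.68 to 1.82). Rpl36al, the autosomal paralog of the X-linked Rpl36a, had a ratio of 1.66 (1.48 to 1.85) and Rpl13a, known also for a role in interferon-driven translational control, of 1.63 (1.48 to 1.79). The same contrast left Rps6, the target of S6 kinases, at 1424 and 1480 CPM, and Rpl11 at 1457 and 1669 CPM, a ratio of 0.873 (0.836 to 0.911).

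In the Car4 cluster alone 16 of 82 members measured were higher and 0 lower, where 7.16% of 3857 genes were called higher and 7.34% lower. There Rps27rt had a ratio of 2.96 (2.30 to 3.83), Rpl27 of 1.95 (1.76 to 2.17) and Rps28 of 1.85 (1.74 to 1.96). Restricting the class to cells of 5000 to 10000 UMIs gave 8 members higher and 16 lower, where 13.6% of genes were called higher and 13.1% lower, with a summed share of 15.3% in 142 Lin28+/cKit- cells and 16.5% in 245 Lin28-/cKit- cells. In the Car4 cluster at that depth 9 were higher and 1 lower, where 10.3% of 1795 genes were called higher and 9.81% lower. Fibroblast markers, summed, stood at 4200 CPM in the Lin28-/cKit- endothelial-like cells with 10 of 10 detected, 8.62% of the whole-library level. In the Lin28+/cKit- endothelial-like cells they stood at 211 CPM with 1 marker at 0, and macrophage markers stood at 458 CPM. Cardiomyocyte markers stood at 440 CPM in the Lin28+/cKit- and 217 CPM in the Lin28-/cKit- endothelial-like cells. The part of this RNA in the differences was not tested. Of the 13 genes called higher, 4 have at least 50% of their 3′ windows in common with another gene, a limit described further on.

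Surface cKit was then examined among Lin28+ cells. In endothelial-like cells 1 of 83 members, Rpl7l1, was higher in Lin28+/cKit+ than in Lin28+/cKit- cells and 4 were lower, where 6.81% of 5567 genes were called higher and 8.77% lower. The 4 were Rps27rt (66.6 against 182 CPM, ratio 0.367, 0.306 to 0.440), Rps28 (1470 against 2110 CPM, ratio 0.697, 0.667 to 0.728), Rpl36al (ratio 0.753) and Rpl27 (ratio 0.782). Rpl7l1, known from early 60S assembly, was at 80.9 and 59.8 CPM, a ratio of 1.35 (1.08 to 1.70). The 2 endothelial comparisons share the Lin28+/cKit- cells, so a gene high in those cells differs in each of them.

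In macrophage-like cells 3 of 83 members were higher in Lin28+/cKit+ than in Lin28+/cKit- cells and 3 were lower. Over 7325 genes, 3.41% were called higher and 13% lower. Lower were again Rps27rt at 58.6 against 137 CPM (ratio 0.427, 0.375 to 0.485), Rps28 at 1662 against 2142 CPM (ratio 0.776, 0.755 to 0.797) and Rpl36al at 232 against 307 CPM (ratio 0.757, 0.704 to 0.814). Higher were Rpl17 (ratio 1.30), Rpl29 (ratio 1.28) and Rps9 (ratio 1.27), proteins of the 60S exit tunnel, the 60S surface and the 40S body. The members' median log2 ratio was 0.19, and it was 0.27 above that of all genes. With trimmed-mean (TMM) scaling, which sets the bulk of genes level and moved all genes by 0.10, 31 members were higher and 1 lower. Shares of all genes called, here and below, are without TMM scaling, so they cannot be set beside TMM counts. The class was made up differently in the 2 libraries: the Il1b cluster, with the higher share, was 66 of 265 macrophage-like cells in Lin28+/cKit- and 266 of 595 in Lin28+/cKit+.

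Within each macrophage-like cluster the same 3 genes were lower in Lin28+/cKit+ cells. These comparisons were added after the values were seen and use parts of the same cells, so they are no separate check. In the Folr2 cluster 3 of 83 members were higher and 3 lower (median log2 ratio 0.18; 13 and 1 with TMM), where 3.89% of 6496 genes were called higher and 9.59% lower. In the Il1b cluster 0 of 82 were higher and 5 lower (median 0.05; 3 and 3 with TMM), where 4.03% of 3452 genes were called higher and 9.15% lower. In the Folr2 cluster the ratio was 0.437 for Rps27rt, 0.773 for Rps28 and 0.781 for Rpl36al. In the Il1b cluster it was 0.368, 0.707 and 0.705.

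**Figure D3:**
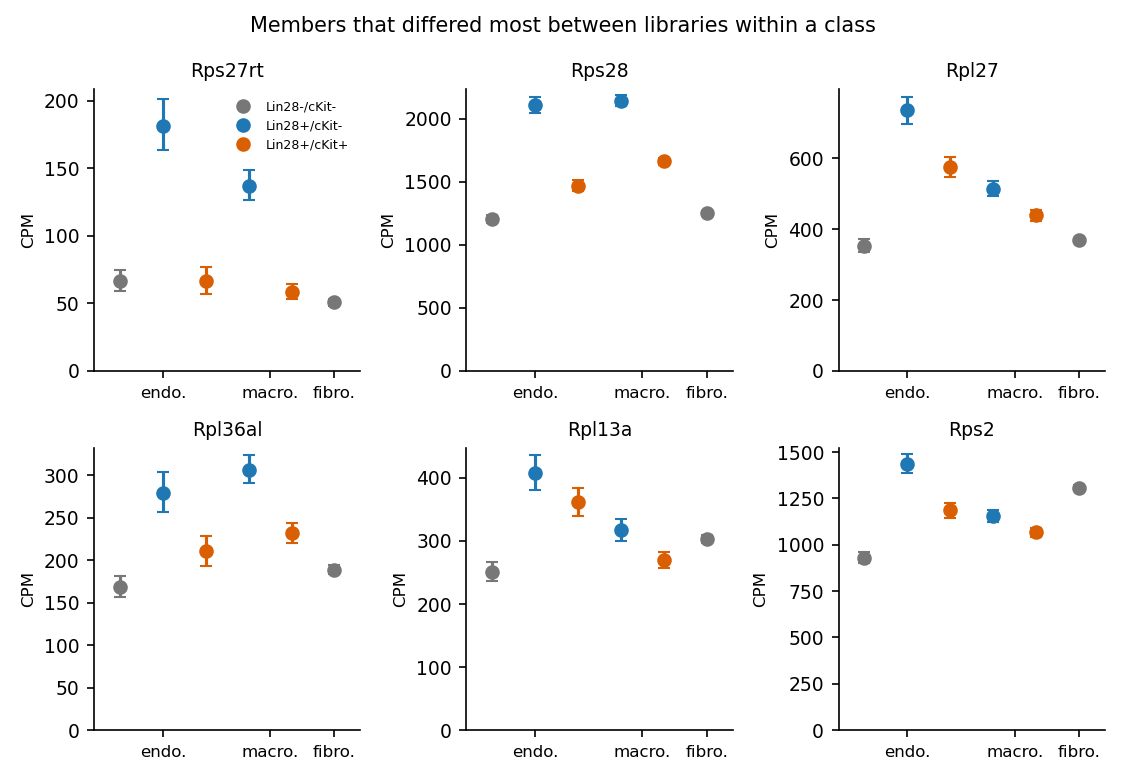
Level in CPM (vertical axis, from 0) of members that differed between libraries, in endothelial-like, macrophage-like and fibroblast-like cells (horizontal axis), with 1 point per library that holds at least 50 cells of the class and bars for 95% counting intervals. Rps27rt and Rps28 are highest in the Lin28+/cKit- library in endothelial-like cells (182 and 2110 CPM) and in macrophage-like cells (137 and 2142 CPM).

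Set side by side over all named cells, Rps27rt was at 66.5, 182 and 66.6 CPM in the endothelial-like cells of the 3 libraries and at 50.9, 102 and 39.0 CPM in the fibroblast-like cells, of which the Lin28+ libraries held 28 and 10. In B cell-like cells it was at 124 CPM (20 Lin28-/cKit- cells) and 446 CPM (10 Lin28+/cKit- cells). The Lin28+/cKit- library was the highest in these 3 classes. In macrophage-like cells it was at 139, 137 and 58.6 CPM, where the first value rests on 15 UMIs in 14 cells. Rps28 was at 1252, 1907 and 1325 CPM in fibroblast-like cells and at 1898, 2142 and 1662 CPM in macrophage-like cells, again highest in Lin28+/cKit-. Whether this belongs to the library or to the sorted cells cannot be told apart.

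Class differences inside a library share their preparation. Macrophage-like were set against endothelial-like cells in each Lin28+ library. The Folr2 and Il1b clusters, which differ in share, were pooled here, with 199 and 66 cells in Lin28+/cKit- and 329 and 266 in Lin28+/cKit+. In Lin28+/cKit- 1 of 83 members was higher in macrophage-like cells and 31 were lower, with a median log2 ratio of -0.26, but TMM scaling turned these to 26 higher and 1 lower with a median of 0.13. Before TMM scaling 25.6% of all 6500 genes were called higher and 43.8% lower, with a median of -0.28 (0.12 with TMM). In Lin28+/cKit+ 3 were higher and 21 lower with a median of -0.15, which TMM turned to 39 higher and 0 lower with a median of 0.31. Before TMM scaling 23.9% of all 7516 genes were called higher and 48.1% lower, with a median of -0.35 (0.12 with TMM). TMM moved all genes by 0.39 and 0.47 in log2 in these comparisons. Relative to the median gene the members lay at 0.02 and 0.20, so their direction as a group depended on the scaling.

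The order among members was alike in the 2 libraries. Across 83 members the log2 ratios of the libraries had a Pearson correlation of 0.94 and a Spearman correlation of 0.94, as a description over genes that share each library's depth and cell classes. The gene called higher in each was Rpl10, the X-linked gene of a late-joining 60S protein near the peptidyl transferase center. It was at 1955 against 1329 CPM in Lin28+/cKit- (ratio 1.47, 1.41 to 1.54) and at 2261 against 1569 CPM in Lin28+/cKit+ (ratio 1.44, 1.39 to 1.49). Rpl10a, the gene of the L1 stalk protein, and Rps29 were also called higher in Lin28+/cKit+, with ratios of 1.34 and 1.32.

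At the other end 19 members were lower in both libraries before TMM scaling, which left 1 and 0 lower. Of all genes 43.8% were called lower in Lin28+/cKit- and 48.1% in Lin28+/cKit+. The share of all genes lower in both is not given, so the 19 cannot be read as particular to the members. Rps20, a 40S head protein gene, was at 1667 against 2739 CPM (ratio 0.609, 0.588 to 0.630) and at 1975 against 3085 CPM (ratio 0.640, 0.623 to 0.658). Rps21 had ratios of 0.642 and 0.713 and Rpl21 of 0.647 and 0.673. Rps6 was at 1018 against 1424 CPM and at 1260 against 1713 CPM. In Lin28+/cKit- the SD of log2 ratios was 0.25 among members reaching 1000 UMIs in the pair and 2.73 among other genes of that depth. The other genes include those that built and named the classes, a step that left the members out, so a wider spread among them was built in. In the cKit comparisons the SDs of members and other genes were 0.22 and 0.22 (macrophage-like) and 0.16 and 0.28 (endothelial-like). In macrophage-like cells endothelial markers summed to 433 and 570 CPM, and in endothelial-like cells of the same libraries macrophage markers summed to 458 and 719 CPM. Such mixing was not tested for its part in the ratios.

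**Figure D4:**
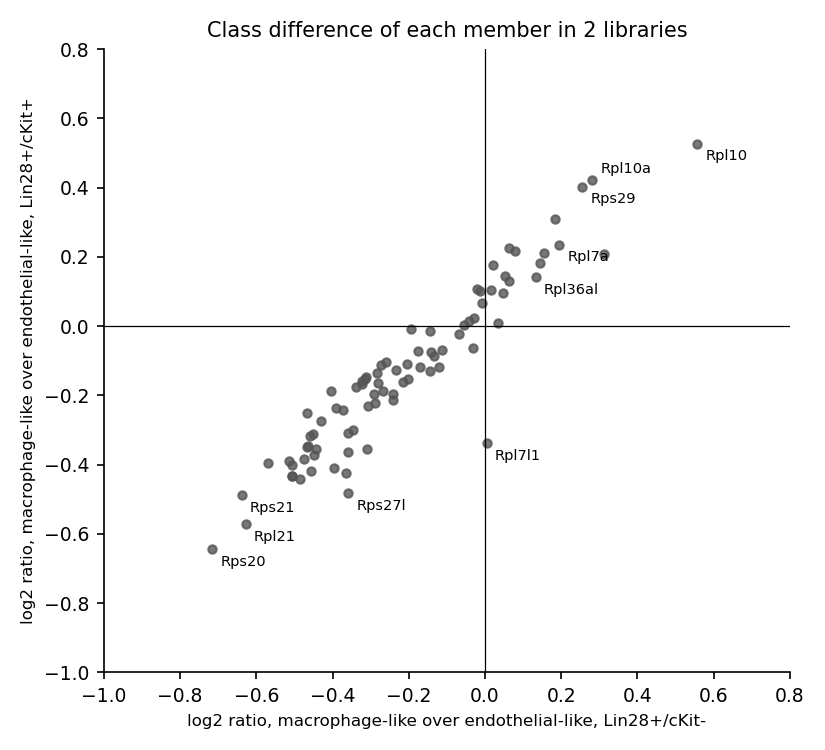
Log2 ratio of CPM, macrophage-like over endothelial-like cells, of each measured member in the Lin28+/cKit- library (horizontal axis) and the Lin28+/cKit+ library (vertical axis), 1 point per gene. Points run along the diagonal from Rps20 (ratios 0.609 and 0.640) to Rpl10 (1.47 and 1.44), and TMM scaling would move all points by 0.39 and 0.47.

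Fibroblast-like cells were set against endothelial-like cells within the Lin28-/cKit- library. Of 83 members 12 were higher and 4 lower, which TMM scaling moved to 37 and 0, where 27.8% of 10528 genes were called higher and 33.3% lower. The members' median log2 ratio was 0.09. Rplp0, the stalk protein that carries the P1 and P2 dimers, was at 2556 against 1444 CPM (ratio 1.77, 1.72 to 1.82). Rpsa, known also as a laminin receptor, was at 2732 against 1593 CPM (ratio 1.72, 1.67 to 1.76). Rpl22l1, a paralog of the RNA-binding Rpl22, was at 612 against 359 CPM (ratio 1.71, 1.62 to 1.80), and Rpl10 at 2332 against 1518 CPM (ratio 1.54, 1.498 to 1.576). The other stalk genes did not keep pace with Rplp0: Rplp1 was at 4386 against 3645 CPM and Rplp2 at 1768 against 1829 CPM. Rps29 (ratio 0.727), Rps14 (ratio 0.741), Rps27rt (ratio 0.765) and Rpl41 (ratio 0.789) were lower in fibroblast-like cells.

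Clusters of a class were then set against each other. The SD of the members' log2 ratios was 0.14 (Lin28+/cKit-) and 0.11 (Lin28+/cKit+) for the Il1b against the Folr2 cluster. For the Npr3 against the Car4 cluster it was 0.22 (Lin28-/cKit-) and 0.23 (Lin28+/cKit+). Macrophage-like against endothelial-like cells gave 0.25 (Lin28+/cKit-) and 0.24 (Lin28+/cKit+). The following comparisons were added after the shares were seen, so they describe clusters chosen for their shares. In Lin28+/cKit- cells 43 of 82 members were higher in the Il1b than in the Folr2 cluster and 0 were lower, where 6.05% of 4741 genes were called higher and 18.5% lower. In Lin28+/cKit+ cells 4 of 83 were higher and 1 lower, where 4.77% of 5831 genes were called higher and 22.4% lower. With TMM scaling the counts were 73 and 0, and 57 and 0. The 4 called higher in each library were Rps26, Rpl39, Rps4x and Rps16. Rps26, whose protein lines the messenger exit channel, was at 1345 against 732 CPM (ratio 1.84, 1.71 to 1.97) and at 1130 against 761 CPM (ratio 1.49, 1.41 to 1.56). Rpl39, an exit tunnel protein gene, had ratios of 1.46 and 1.29, and the X-linked Rps4x of 1.38 and 1.27.

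The Npr3 endothelial cluster was set against the Car4 cluster in the same way. In Lin28-/cKit- cells 43 of 82 members were higher and 1 lower, where 19.2% of 3477 genes were called higher and 27.9% lower. In Lin28+/cKit+ cells, with 30 Npr3 cells, 46 of 82 were higher and 1 lower, where 16.1% of 2638 genes were called higher and 27.6% lower. The same 41 members were called higher in each library. Overlap over all genes is not given, here or for the Il1b and Folr2 clusters. These clusters were chosen for their shares, so such overlaps are descriptions and do not single out the members. Rpl10 was at 2447 against 1236 CPM (ratio 1.98, 1.86 to 2.11) and at 2516 against 1513 CPM (ratio 1.66, 1.53 to 1.81). Rps6 was at 2105 against 1302 CPM and at 2771 against 1623 CPM, ratios of 1.62 and 1.71. Rpl22l1 had ratios of 1.73 and 1.84. Rps27l was the member called lower, at 227 against 287 CPM and 211 against 321 CPM.

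Lymphocytes of the Lin28-/cKit- library were set against its fibroblast-like cells. In the 20 B cell-like cells 74 of 83 members were higher and 1 lower, where 7.84% of 10021 genes were called higher and 8.82% lower, and TMM scaling left 49 and 2. In the 27 cells of the T and NK marker cluster 77 were higher and 1 lower, where 10.9% of 10045 genes were called higher and 15.5% lower, and TMM scaling left 70 and 1. The members' median log2 ratios were 0.74 and 0.86. Rps27 was at 7236 CPM in B cell-like, 5153 CPM in T and NK marker and 2180 CPM in fibroblast-like cells, ratios of 3.32 (3.05 to 3.60) and 2.36 (2.20 to 2.53). Rpl38, a 60S protein gene known for selective translation of Hox messengers, had ratios of 2.18 and 2.66. Rpl12, a stalk-base protein gene, had ratios of 2.29 and 2.52. Rpl10 stood at 1.08 and 1.02, and Rplp0 at 1.04 in B cell-like but 1.61 in T and NK marker cells, so these 2 genes did not share the size of the rest in B cell-like cells.

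Rps27l was again the member called lower, at 137 CPM in B cell-like and 168 CPM in T and NK marker cells against 270 CPM in fibroblast-like cells. Rps27l is a p53-induced paralog of Rps27. Of the UMIs of Rps27 and Rps27l together, Rps27l gave 9.66%, 8.02% and 9.52% in the endothelial-like cells of the 3 libraries and 7.84% and 7.79% in the macrophage-like cells of the Lin28+ libraries. In fibroblast-like cells of Lin28-/cKit- it gave 11.01% (10.8 to 11.3), but in B cell-like cells 1.85% (0.930 to 3.29) and in T and NK marker cells 3.15% (2.09 to 4.55). The lymphocyte intervals do not overlap those of the large classes.

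The other paralog pairs showed class and library patterns of their own. Rpl22l1 gave 24.5%, 22.8% and 26.0% of the Rpl22 and Rpl22l1 UMIs in endothelial-like cells of the 3 libraries, 30.5% and 30.4% in macrophage-like cells of the Lin28+ libraries, and 35.4% in fibroblast-like cells of Lin28-/cKit-. The values of these 3 classes did not overlap. Rpl36al gave 14.99%, 20.7% and 16.2% of its pair with Rpl36a in endothelial-like cells, 28.1% and 20.9% in macrophage-like cells and 14.4% in fibroblast-like cells. Here the Lin28+/cKit- library was the high one in each of the 2 classes compared. Rps27rt gave 5.32% of its pair with Rps27 in endothelial-like and 5.04% in macrophage-like Lin28+/cKit- cells, and between 2.18% and 2.57% in the large classes of the other libraries.

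**Figure D5:**
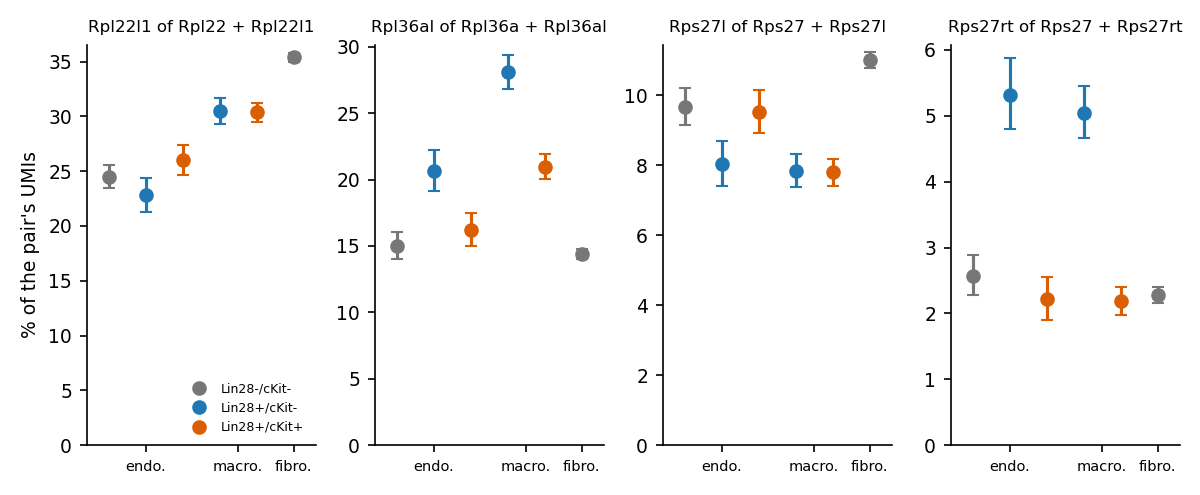
Percent of the pair's UMIs that fall on the paralog (vertical axis, from 0) for Rpl22l1, Rpl36al, Rps27l and Rps27rt, by class (horizontal axis) and library (colour), with Clopper-Pearson 95% intervals. Rpl22l1 separates the classes (22.8% to 26.0%, 30.4% to 30.5% and 35.4%), while Rps27rt separates the Lin28+/cKit- library (5.04% and 5.32%) from the others (2.18% to 2.57%).

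Rpl3l and Rpl39l were close to the detection limit. Rpl3l had 14, 12 and 13 UMIs in the 3 libraries, of which 4, 2 and 3 lay in the 20, 7 and 9 cardiomyocyte-like cells that remained after the spin. Its share of the Rpl3 and Rpl3l UMIs there was 2.88% (0.790 to 7.20), 40% (5.27 to 85.3) and 7.5% (1.57 to 20.4), against 0.0115% (0.00373 to 0.0268) in fibroblast-like cells of Lin28-/cKit-. Rpl7l1 and Rps19bp1 were low in each library, with Rps19bp1 at 36.4, 24.3 and 25.3 CPM.

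Near-identical copies limit what can be said of some members. In the last 500 bases of their transcripts, 73 of the 85 members had at least 1 window of 75 bases that another annotated gene (GENCODE vM21) also holds, 26 had at least 50% of windows shared, and 12 had none. How the counting treated reads that fit several genes was not stated, so splits between such copies are uncertain. Rps27rt shared 90.3% of its windows, Rpl10 89.9%, Rpl7a 88.0%, Rps2 73.9% and Rpl27 58.9%. Rpl36al shared 48.95%, Rps26 44.4%, Rps29 30.7%, Rps28 18.99%, Rps27l 8.07%, Rps21 6.56% and Rps20 none. By this measure the annotated 3′ ends of Rps20, Rps21, Rps28 and Rps27l are mostly unique, and those of Rps27rt and Rpl10 are not. Windows were pooled over a gene's annotated transcripts, and in which of them the counted reads lie was not tested.

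Other genes of protein synthesis were read from lists beside the members. Among translation factor and other TOP messenger genes, 1 of 20 was higher and 10 lower in macrophage-like than in endothelial-like cells of Lin28+/cKit-, and 2 and 10 of 20 in Lin28+/cKit+, where 25.6% and 23.9% of all genes were called higher and 43.8% and 48.1% lower. Eif4a2, a helicase gene of initiation, had ratios of 0.494 and 0.514. In the Npr3 against the Car4 cluster 8 and 10 of 20 were higher and 0 lower, where 19.2% and 16.1% of all genes were higher. Eef1d, an elongation factor subunit gene, had ratios there of 1.84 and 1.80, Eef1a1 of 1.60 and 1.53, and the nucleolar protein gene Npm1 of 1.54 and 1.63. In T and NK marker against fibroblast-like cells 12 of 20 were higher and 0 lower, where 10.9% of all genes were higher.

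Genes of the mitochondrial ribosome, which is built from a separate set of proteins, were read beside the members. In macrophage-like against endothelial-like cells 2 of 63 mitochondrial ribosomal protein genes were higher and 41 lower in Lin28+/cKit- (median log2 ratio -0.55), and 1 of 71 higher and 52 lower in Lin28+/cKit+ (median -0.58), beside medians of -0.26 and -0.15 for the members (0.13 and 0.31 with TMM) and 43.8% and 48.1% of all genes called lower. Nuclear oxidative phosphorylation genes gave 0 higher and 55 lower of 75, and 1 and 61 of 76. By cKit, among Lin28+ endothelial-like cells, 9 of 63 mitochondrial ribosomal protein genes were higher and 0 lower (median 0.13, members 0.10). There 6.81% of all genes were called higher and 8.77% lower. By cKit in macrophage-like cells 6 of 72 were higher and 0 lower (median 0.07, members 0.19). There 3.41% of all genes were called higher and 13% lower. In the Il1b against the Folr2 cluster, where the members' medians were 0.33 and 0.20, the mitochondrial set had 0 higher and 9 lower of 44 in Lin28+/cKit- and 1 and 15 of 63 in Lin28+/cKit+, where 18.5% and 22.4% of all genes were lower.

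Ribosome assembly and control genes were read from lists in the same way. Among ribosome biogenesis genes 0 of 27 were higher and 2 lower in Lin28+/cKit- than in Lin28-/cKit- endothelial-like cells, where 8.81% and 11.1% of all genes were. The counts that follow set macrophage-like against endothelial-like cells, where in Lin28+/cKit- 25.6% of all genes were higher and 43.8% lower, and in Lin28+/cKit+ 23.9% and 48.1%. Of the biogenesis genes 4 of 24 were higher and 11 lower in Lin28+/cKit-, and 3 and 15 of 29 in Lin28+/cKit+, with the nucleolar GTPase gene Gnl3 at 1.97 and 2.43. Of the chaperones and importers of ribosomal proteins 1 of 8 was higher and 2 lower, and 2 and 4 of 9. Of the mTORC1 and LARP1 control genes 6 of 15 were higher and 5 lower, and 5 and 6 of 18. Ddit4, an mTORC1 inhibitor gene, stood apart among these with ratios of 0.0689 and 0.0824, and Eif4ebp1, a repressor of cap-dependent initiation, was at 2.03 in Lin28+/cKit-. Of the stalling and quality control genes 0 of 10 were higher and 6 lower, and 1 and 8 of 12.

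In the 5S particle and p53 surveillance list 2 of 7 genes were higher and 3 lower in macrophage-like than in endothelial-like cells of Lin28+/cKit-. In Lin28+/cKit+ they were 2 and 3 of 8. Of all genes 25.6% were called higher and 43.8% lower in Lin28+/cKit-, and 23.9% and 48.1% in Lin28+/cKit+. Cdkn1a, a p53 target, was higher at 1.94 and 2.56. Rpl5 stood at 1141 against 1241 CPM and 1359 against 1477 CPM, and Rpl11 at 1523 against 1457 CPM and 1835 against 1674 CPM, none of these past the call. In the Npr3 against the Car4 cluster Cdkn1a was lower, with ratios of 0.534 and 0.0236 (0.00285 to 0.0857), the latter from 2 UMIs in the Npr3 cells, beside members that were higher. Between libraries, 8.81% of all genes were called higher and 11.1% lower in Lin28+/cKit- against Lin28-/cKit- endothelial-like cells. By cKit the shares were 6.81% and 8.77% in endothelial-like cells, and 3.41% and 13% in macrophage-like cells. Of 6 RNA quality and stress genes 2 were higher and 1 lower in Lin28+/cKit- against Lin28-/cKit- endothelial-like cells. In each cKit comparison 1 was called, lower. That gene, the heat shock gene Hspa1b, had a ratio of 2.11 in Lin28+/cKit- against Lin28-/cKit- endothelial-like cells and of 0.612 and 0.747 in Lin28+/cKit+ against Lin28+/cKit- endothelial-like and macrophage-like cells. Its part in the differences of Rps27rt and Rps28 was not tested.

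Rps27a, which encodes a 40S protein fused to ubiquitin, stood at 2258, 2075 and 2345 CPM in the endothelial-like cells of the 3 libraries. It was called in no comparison between libraries, unlike Rps27rt, Rps28 and Rpl36al.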

How the data were processed

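Single-cell RNA was measured in 3 libraries, 1 per group. The deposited tables hold the natural log of 1 plus UMIs per 10000 of the cell, gene by cell. Per the submitters' processing notes the authors used Cell Ranger (no version), Seurat 4.0.2 and mm10; how cells were filtered is not given in the sources used here. The log was undone, and 100% of values were whole counts within 0.01, so recovered UMI counts were summed per class and library. The design had assumed counts, and these were used.

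Cells (at least 500 UMIs) were clustered with scanpy 1.11.5 on 2000 variable genes without ribosomal protein genes (30 components, 15 neighbours, Leiden resolution 1), and clusters named "-like" from markers. Scrublet marked 7, 10 and 9 cells, none of which was removed in the main values. CPM ratios carry exact conditional binomial 95% intervals; shares of a pair carry Clopper-Pearson intervals (scipy 1.17.1). A call is a ratio at least 25% above or 20% below 1 with an interval excluding 1, over genes with 100 UMIs in the pair. The comparison code was tested on simulated data. Members named are those with fixed roles, the 5 highest and 5 lowest relative ratios per comparison, and the 5 most and least abundant; others named in lists of calls were chosen after their values were seen, as were list genes beyond the 4 with the largest ratios. Members, lists and comparisons were chosen with earlier results of these data known. A few results are not reported here.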

Additional observations from a re-analysis of the deposited data

Results flagged for a closer look

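Rows with a -ps name are annotated copies that the naming rule leaves out, so no comparison used them, yet 7 of them held UMIs above the limit that a count of 0 allows. Over the 3 libraries Rpl10-ps3 had 2599 UMIs, Rpl36a-ps1 1060, Rpl27-ps3 976, Rps12-ps3 800, Rpl9-ps6 610, Rpl7a-ps5 57 and Rpl13a-ps1 40. Rpl10-ps3 was at 48.9, 68.9 and 40.8 CPM and Rpl27-ps3 at 17.1, 24.3 and 20.7 CPM in the Lin28-/cKit-, Lin28+/cKit- and Lin28+/cKit+ libraries. How reads shared by a copy and its parent were divided was not tested.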

How the results depend on the processing

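No paired analysis was possible because each group is 1 library, and for the same reason no library could be left out. Shares by library and large class, and paralog shares in large classes, each moved by less than the spread over cells or the interval. This held under each alternative run for a share (other denominators, mean of cells, cells of at least 2000 UMIs, other clusterings, no likely doublets). The spread over cells was wide, with quartiles of 11.2% and 16.8% in Lin28-/cKit- endothelial-like cells, so it cannot judge the smaller differences between libraries. In endothelial-like cells of 5000 to 10000 UMIs the share was 15.3% in Lin28+/cKit- and 16.5% in Lin28-/cKit-, against 15.1% and 14.9% without a depth limit. Counts of members called moved most with the scaling and the fold. Shares of all genes called are given only for the main calls and, by Lin28 in endothelial-like cells, at 5000 to 10000 UMIs. The other counts below have no such share beside them, so they cannot be read as particular to the members. With TMM the counts higher and lower were 31 and 1 (macrophage-like, Lin28+/cKit+ against Lin28+/cKit-), 26 and 1, then 39 and 0 (macrophage-like against endothelial-like; medians 0.13 and 0.31), and 37 and 0 (fibroblast-like against endothelial-like), and 2 higher by cKit in endothelial-like cells. At 1.5-fold, in the order of the report, they were 7 higher (endothelial-like by Lin28), 6 higher (Car4 cluster), 0 and 1 (endothelial-like by cKit), 0 and 1 (macrophage-like by cKit), 0 and 3, 0 and 1 (macrophage-like against endothelial-like) and 4 and 0 (fibroblast-like). For endothelial-like cells by Lin28, where 0 were lower, the mean of cells' own CPM gave 2 lower, removing likely doublets 1 and subtracting free RNA 1, and the Car4 cluster gave 1 by the mean of cells. Cells of 5000 to 10000 UMIs, an alternative chosen after seeing the data, gave 8 higher and 16 lower, 9 and 1 in the Car4 cluster, and 9 higher for macrophage-like cells by cKit. For cKit in endothelial-like cells the 1 higher became 2 with totals that leave out mitochondrial, ribosomal protein and haemoglobin genes, 0 at 1000 UMIs and 0 at resolution 2. For cKit in macrophage-like cells the 3 higher became 9 with those totals, 1 by the mean of cells and 5 at resolution 2. Macrophage-like against endothelial-like cells gave 2 higher with free RNA subtracted in Lin28+/cKit-, and fibroblast-like cells 19 higher by the mean of cells. The cause of these changes was not tested, beyond fewer genes or cells where the alternative removes them. Members under 100 UMIs in a pair, and classes of under 50 cells, are limited by depth.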
